A study of Homo sapiens with 12 samples.

Results

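The genes described here are 10 transcription factor genes of the AP-1 and EGR families: FOS, FOSB, FOSL1 and FOSL2, JUN, JUNB and JUND, EGR1 and EGR2, and ATF3. They were taken from the count table by symbol and make up 10 of its 28278 genes. RNA was sequenced from K562 cells, a human erythroleukaemia line, with HRG1 intact (WT) or knocked out (KO). HRG1 is a heme transporter, and its gene is SLC48A1. Each genotype was left untreated or given 0.75 mM sodium butyrate, a short-chain fatty acid that inhibits histone deacetylases. The first dose came 24 h after plating and the second 48 h after the first, and cells were taken 6 h after the second dose. All 12 samples are also described as day 8 of differentiation, and the sources used here do not give how that day relates to these hours. This gave 4 groups of 3 libraries: untreated WT, butyrate-treated WT, untreated KO and butyrate-treated KO. All groups grew in RPMI with serum, which itself can induce these genes. How the knockout was made and the number of KO clones are not given in the sources used here, so genotype and clone cannot be told apart. The labels do not say that replicates were separate cultures, so p-values measure only the spread between these libraries, which may be technical.

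AP-1 is a dimer of basic leucine zipper proteins. FOS family proteins pair with JUN family proteins, while JUN proteins can also pair with each other or with ATF family members such as ATF3. EGR1 and EGR2 are zinc finger factors that bind GC-rich DNA. Growth factor, serum and stress signals reach many of these genes through the MAP kinase cascade within minutes, with no need for new protein, which gives the class its name of immediate early genes. The signals act on serum response factor at CArG boxes and on CREB or ATF proteins at cAMP response elements. In K562 cells, AP-1 and EGR1 are best known from the megakaryocyte-like response to phorbol ester.

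The promoters of EGR1, EGR2, FOS and JUND are shown as examples that hold CArG boxes or letters of the cAMP response element, through which such signals are known to act. Each is the 250 bases before the annotated start, 5′ to 3′ on the gene's strand, from RefSeq on GRCh38.p14. Capitals mark CArG boxes and GCGNGGGCG in EGR1 (chr5:138465229-138465478, plus strand), a CArG box in EGR2 (chr10:62816367-62816616, minus strand, 1 of 3 annotated starts), TGACG and TATAAA in FOS (chr14:75278578-75278827, plus strand), and TGACGTCA in JUND (chr19:18281623-18281872, minus strand).
EGR1: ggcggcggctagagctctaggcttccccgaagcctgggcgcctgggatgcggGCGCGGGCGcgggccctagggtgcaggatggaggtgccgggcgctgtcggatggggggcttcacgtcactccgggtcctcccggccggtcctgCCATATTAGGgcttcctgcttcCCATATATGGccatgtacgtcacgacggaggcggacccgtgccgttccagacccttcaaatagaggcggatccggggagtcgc
EGR2: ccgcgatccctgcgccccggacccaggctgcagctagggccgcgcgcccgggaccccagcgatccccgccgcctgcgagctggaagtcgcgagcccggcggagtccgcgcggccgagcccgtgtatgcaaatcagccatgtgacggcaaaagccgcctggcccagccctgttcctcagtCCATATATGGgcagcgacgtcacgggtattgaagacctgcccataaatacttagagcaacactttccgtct
FOS: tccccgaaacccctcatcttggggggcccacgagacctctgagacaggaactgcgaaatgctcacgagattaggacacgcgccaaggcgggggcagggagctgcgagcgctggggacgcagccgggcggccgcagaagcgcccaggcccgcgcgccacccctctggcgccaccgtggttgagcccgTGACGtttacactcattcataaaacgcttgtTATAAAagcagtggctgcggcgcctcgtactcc
JUND: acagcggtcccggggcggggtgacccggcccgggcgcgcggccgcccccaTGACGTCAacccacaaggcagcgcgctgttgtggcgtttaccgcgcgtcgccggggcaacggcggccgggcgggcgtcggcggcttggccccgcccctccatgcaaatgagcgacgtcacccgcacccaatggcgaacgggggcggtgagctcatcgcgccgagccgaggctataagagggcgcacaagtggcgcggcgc

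These letters were searched on both strands in windows of 300 bases, from 250 before the start to 50 after it. RefSeq promoters were matched for 9 of the 10 symbols, in 12 windows. A CArG box was found in 1.29% of 35116 promoter windows and in 2 of the 12. EGR1 carried CArG boxes beginning 105 and 83 bases before its start, and EGR2 carried one beginning 71 bases before. The full cAMP response element TGACGTCA occurred in 1.85% of all windows and among these 12 only in that of JUND, 200 bases before the start. Its core TGACG, which the full element contains, occurred in 24.6% of all windows and in 8 of the 12. These 8 belong to EGR1, EGR2, FOS, FOSB, FOSL2, JUN, JUNB and JUND. Only the match in FOS and the full element of JUND are capitalised above, and those in EGR1 and EGR2 are not. The EGR core GCGNGGGCG was held by 9.43% of all windows and by 2 of the 12, while GGGCGG, which can overlap it, was held by 45.0% and by 8 of the 12. The AP-1 letters TGANTCA were found in 7.71% of all windows and in 1 of the 12, that of FOSL2. TATAAA occurred in 11.5% of all windows and in 4 of the 12, and in FOS, JUNB and FOSB it began 33, 31 and 30 bases before the start. These matches describe letters, not sites in use. Bases outside the windows were not searched, so the lack of a CArG box in the FOS window does not show that FOS has none.

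The deposited totals ran from 19963594 to 30348538 counts per library, and 15805 genes passed the filter on low counts. SLC48A1, the knockout's target, averaged 73.7 ± 8.42 CPM (SD, n = 3) without and 67.8 ± 13.9 with butyrate in WT, against 5.94 ± 2.74 and 8.03 ± 2.04 in KO, so every KO library lay below every WT library. CPM is the count scaled to the library's TMM-corrected total, in the usual units. In each group the 28S ribosomal RNA gene RNA28SN5 took its highest share of counts in the library with replicate number 1. That share was 2.30% to 5.63% in the libraries numbered 1 and 0.673% to 2.86% in the other libraries, so the ranges overlapped. Markers moved with the groups too. The sum of 9 erythroid markers, all past the filter, reached 8025 to 17579 CPM in untreated WT, 26187 to 56457 in treated WT, and 3517 to 6326 over the 6 KO libraries, while the megakaryocyte markers GP1BB and PF4 were at 0 in all 12. Such sums follow their most abundant markers. In untreated KO 4 of the 9 erythroid markers had positive log2 values against WT. By edgeR 1 was called higher and 3 lower, against 11.7% and 10.9% of all tested genes. In treated KO 3 of the 9 were positive. There 0 were called higher and 3 lower, against 10.1% and 8.89%. The megakaryocyte sum, over 8 markers of which 5 passed the filter, ran from 33.4 to 61.0 CPM in untreated and 118 to 227 in treated WT, and from 15.6 to 55.4 and 81.7 to 118 in KO. The monocyte and macrophage sum, over 6 markers of which 5 passed, was 27.7 to 38.8 and 54.8 to 74.2 CPM in untreated and treated WT, and 23.8 to 95.2 and 81.2 to 165 in KO. The lymphoid sum, over 6 markers of which 5 passed and MS4A1 was at 0, was 14.0 to 27.1 CPM over the WT libraries, 5.14 to 6.33 in untreated KO and 11.3 to 13.8 in treated KO. The stromal sum, over 6 markers of which 3 passed and LUM was at 0, was 2.35 to 5.21 CPM over the untreated libraries and 44.0 to 157 over the treated ones. The part of any of these in the results was not tested. In bulk RNA, fewer cells expressing a gene and less RNA per cell cannot be told apart.

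All 10 genes passed the filter, EGR2 only through its treated groups. Together they took 0.0263% to 0.0361% of the counts in the 6 untreated libraries and 0.0440% to 0.0712% in the 6 treated ones, with no overlap. Levels of different genes were set side by side as CPM per kb of merged exons (GENCODE v29). In untreated WT, JUND led with 73.2 ± 22.2 CPM per kb (SD, n = 3), followed by JUNB at 20.8 ± 6.45 and EGR1 at 16.3 ± 13.3. The libraries of JUND lay above those of JUNB, whereas those of JUNB and EGR1 overlapped. FOSL1, ATF3 and JUN formed an overlapping middle range of 9.04 ± 1.26, 8.04 ± 3.10 and 6.85 ± 3.25 CPM per kb. FOSL2 at 0.741 ± 0.319, FOS at 0.661 ± 0.388 and FOSB at 0.217 ± 0.170 CPM per kb also overlapped in that order, and EGR2 had 0 counts in all 3 libraries.

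In treated KO the order of these length-scaled levels was another. EGR1 came first at 101 ± 5.64 CPM per kb, with every library above every JUND library (59.5 ± 8.92). JUND overlapped JUNB (34.8 ± 14.9), and JUN followed at 14.6 ± 3.16. FOS stood in the fifth place at 3.75 ± 0.590 CPM per kb and overlapped FOSL1 at 2.81 ± 1.18, while ATF3 stood eighth at 1.22 ± 0.933. Treated WT kept JUND first at 116 ± 26.2, but the EGR1 libraries there ran from 13.4 to 82.0 CPM per kb and overlapped those of JUNB, from 28.3 to 59.96. In untreated KO, JUND at 46.7 ± 0.794 and EGR1 at 36.9 ± 13.7 CPM per kb overlapped.

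**Figure D1:**
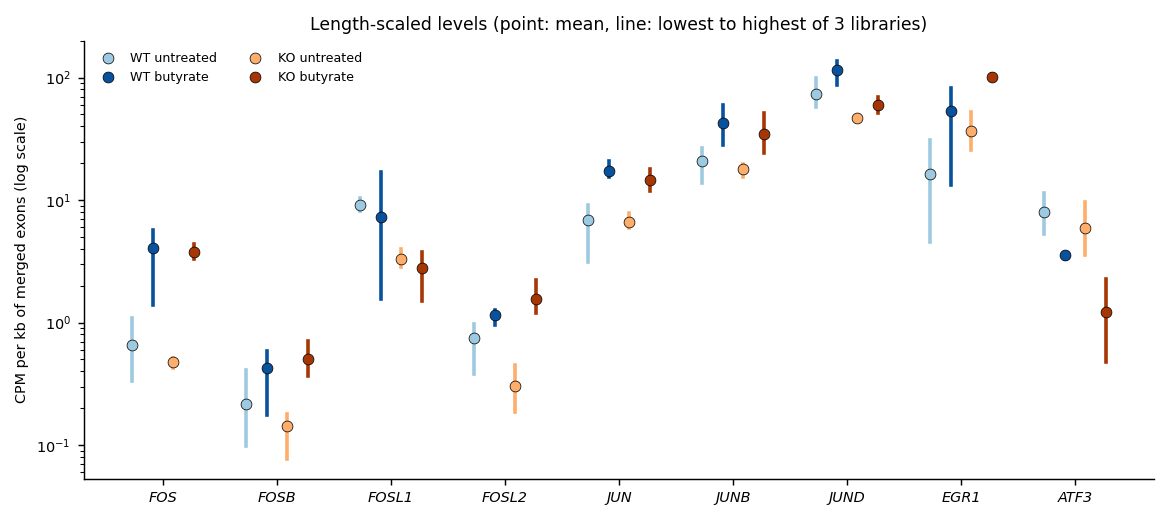
Length-scaled level of 9 genes in the 4 groups, as CPM per kb of merged exons on a log axis; points are means and lines run from the lowest to the highest of 3 libraries (EGR2, with libraries at 0, is not drawn). JUND is highest in 3 groups, and EGR1 is highest in treated KO, at 101 CPM per kb.

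The first comparison asked what butyrate did to these genes in each genotype. FOS, the founding partner of the AP-1 dimer, rose 6.06-fold in WT and 7.91-fold in KO. FOSL2 rose 5.13-fold in KO, and ATF3, a stress-induced factor often acting as a repressor, fell to 0.208 of its untreated level in KO. EGR2 went from 0 counts in every untreated WT library to between 5 and 28 in the treated ones. JUN, JUNB and EGR1 were 1.93 to 3.27 times higher in both genotypes without passing the test. With edgeR's quasi-likelihood test and an adjusted p of 0.05 as the threshold, 1 of 10 was called higher and 0 lower in WT, where 1.8% of all tested genes were called higher and 0.55% lower (2.35% in all). In KO 2 were called higher and 1 lower, where 2.8% of all tested genes were called higher and 0.595% lower (3.4% in all). At an unadjusted p under 0.05 there were 7 of 10 in WT and 8 in KO, against 18% and 19.8% of all tested genes. DESeq2 called 3 and 4, against 8.42% and 9.73% of all tested genes. With the replicate number as a block, edgeR called 3 in WT and 5 in KO, against 8.61% and 11.7%. EGR2 is among the 7 and the 8 and among both counts of 3, and since it passed the filter only through the treated groups, where it is high, it supports none of them. The median log2 fold change of the 9 genes without EGR2 was 0.96 in WT and 1.13 in KO, against 0.02 and 0.00 over all tested genes.

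**Figure D2:**
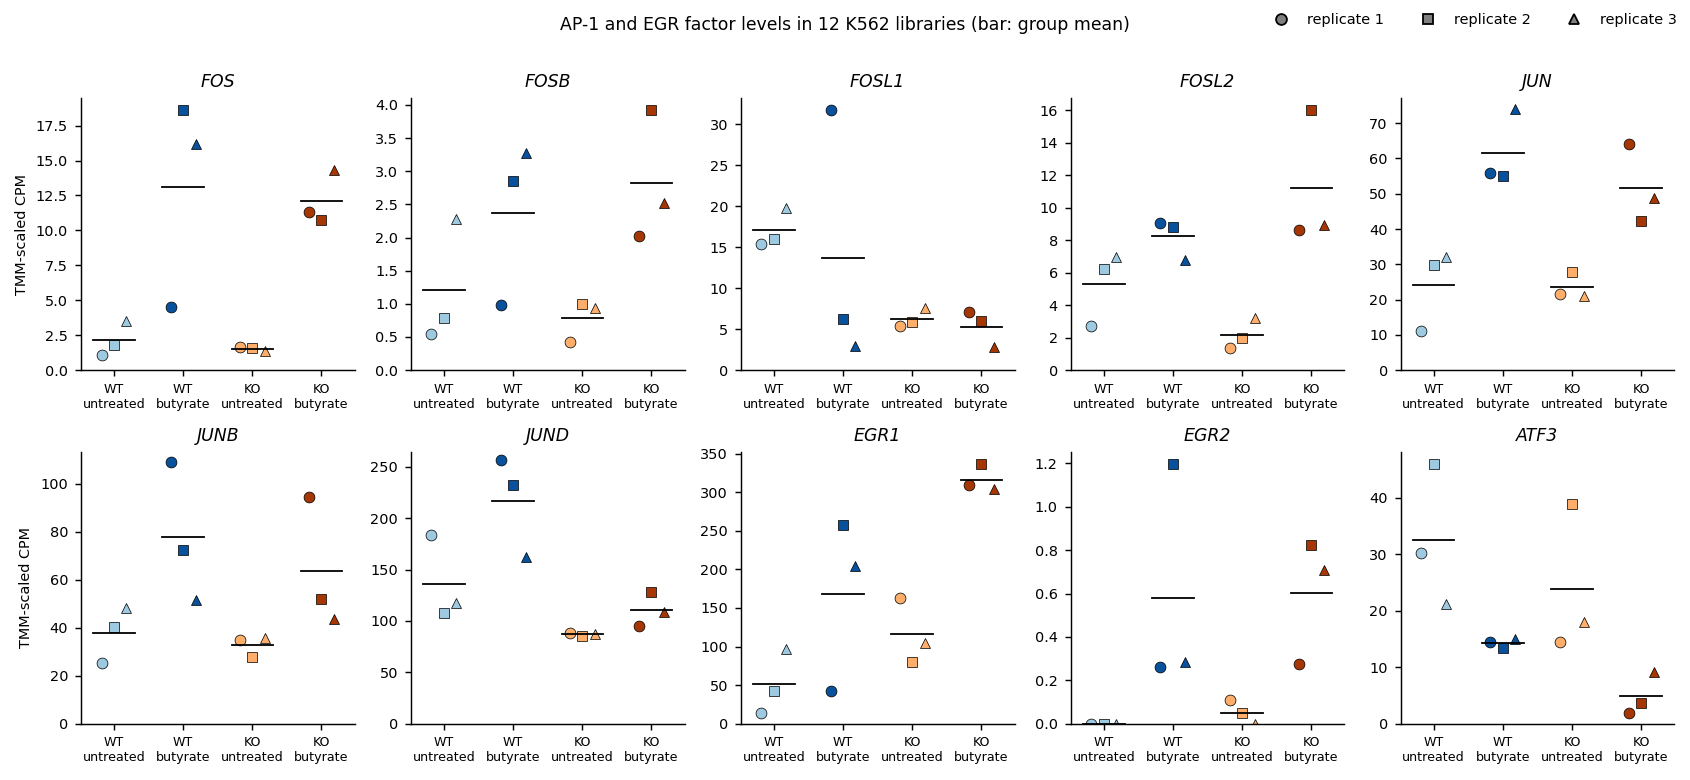
TMM-scaled CPM of each gene in every library, by group; colours are groups, shapes are replicate numbers and bars are group means, and each panel has its own axis from 0. Treated libraries lie above untreated ones for FOS in both genotypes, and the WT libraries of FOSL1 and EGR1 are widely spread.

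Within the FOS family, untreated WT libraries held 1.08, 1.81 and 3.53 CPM of FOS in replicates 1, 2 and 3, and treated WT libraries 4.51, 18.6 and 16.2. Untreated KO libraries held 1.66, 1.57 and 1.37, and treated KO libraries 11.3, 10.7 and 14.3. Every treated library exceeded every untreated library of its genotype, and replicate 1 of treated WT was the lowest treated one. The log2 fold change was 2.60 (SE 0.53, edgeR adjusted p = 0.0293) in WT and 2.98 (SE 0.55, adjusted p = 0.0151) in KO. Between libraries of the same number, FOS was 4.16, 10.3 and 4.58 times higher with butyrate in WT and 6.84, 6.84 and 10.4 times higher in KO. Without single libraries the log2 value stayed between 2.26 and 3.18 in WT and between 2.86 and 3.06 in KO, but most calls were lost. The edgeR adjusted p then passed in 2 of 6 fits in each genotype. These fits called 0.262% to 7.63% of all tested genes in WT and 0.292% to 5.09% in KO, against 2.35% and 3.4% with all libraries. The KO shares are also the background for FOSL2 and ATF3 below. In WT it reached 0.132 without replicate 2 of untreated WT, 0.124 and 0.0852 without replicates 2 and 3 of treated WT and 0.119 without replicate 1 of untreated WT. For KO it reached 0.0674, 0.0915 and 0.0519 when untreated replicates 1, 2 and 3 were dropped, and 0.0529 when treated replicate 2 was.

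FOSL2, which encodes the FOS relative FRA2, had 1.34, 1.95 and 3.21 CPM in untreated KO and 8.64, 16.0 and 8.93 in treated KO. Its levels in untreated WT were 2.71, 6.22 and 6.99 and in treated WT 9.07, 8.83 and 6.80. The KO groups were apart, while the WT groups overlapped through replicate 3. The log2 fold change was 2.36 (SE 0.46, edgeR adjusted p = 0.0203) in KO and 0.63 (SE 0.44, adjusted p = 0.499) in WT. The KO call was lost without replicates 1 or 2 of untreated KO (adjusted p = 0.0894 and 0.1196, edgeR) or replicate 2 of treated KO (0.102), with values between 2.00 and 2.77.

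FOSB, which encodes a close relative of FOS, was low throughout: 0.542, 0.789 and 2.29 CPM untreated and 0.985, 2.86 and 3.27 treated in WT. The KO libraries had 0.428, 0.999 and 0.936 untreated and 2.02, 3.93 and 2.51 treated. The treated libraries were above the untreated ones in KO and overlapped them in WT. Its log2 fold change was 1.83 (SE 0.67, edgeR adjusted p = 0.152) in KO and 0.96 (SE 0.65, adjusted p = 0.486) in WT. With the replicate number as a block the KO value was 1.93 and passed (edgeR adjusted p = 0.0356).

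FOSL1, which encodes FRA1, was the FOS family member whose replicates disagreed most. Untreated WT libraries were close together at 15.4, 16.0 and 19.8 CPM, but treated WT libraries held 31.8, 6.19 and 2.92, so the highest was 10.9 times the lowest. Replicate 1 thus stood at 206% of its untreated partner while replicates 2 and 3 stood at 38.8% and 14.8%. KO libraries held 5.40, 5.85 and 7.52 CPM untreated and 7.07, 6.01 and 2.80 treated, and these overlapped. The log2 fold change was −0.33 (SE 0.66, edgeR adjusted p = 0.847) in WT and −0.25 (SE 0.66, adjusted p = 0.884) in KO. Without replicate 1 of treated WT, FOSL1 fell by 1.92 on the log2 scale in WT (edgeR adjusted p = 0.0275).

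Of the JUN family, JUN itself, the main DNA-binding partner of FOS, had 11.05, 29.7 and 32.0 CPM in untreated WT and 56.0, 55.0 and 74.0 in treated WT. In KO it had 21.7, 27.9 and 21.0 CPM untreated and 64.0, 42.2 and 48.7 treated. Treated and untreated libraries did not overlap in either genotype. The log2 fold changes of 1.34 in WT (SE 0.34, edgeR adjusted p = 0.0595) and 1.13 in KO (SE 0.34, adjusted p = 0.0865) missed the threshold. With the replicate number as a block they were 1.38 (adjusted p = 0.0232) and 1.16 (adjusted p = 0.0383) and passed.

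JUNB, whose protein is often described as a weaker activator that competes with JUN, held 25.2, 40.3 and 48.3 CPM in untreated WT and 109, 72.4 and 51.4 in treated WT. The KO libraries held 34.9, 27.9 and 35.8 untreated and 94.3, 52.1 and 43.7 treated. In both treated groups replicate 1 was highest and replicate 3 lowest, and neither overlapped its untreated group. The same-numbered ratios in replicates 1, 2 and 3 were accordingly 4.33, 1.80 and 1.06 in WT and 2.703, 1.87 and 1.22 in KO. Log2 fold changes were 1.03 (SE 0.34, edgeR adjusted p = 0.140) and 0.95 (SE 0.34, adjusted p = 0.149). The exons of JUNB share 259 bases, 14.2% of their length, with the antisense gene HOOK2, and the use of strand in counting is not given in the sources used here.

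JUND, the member that is broadly expressed in unstimulated cells, had 184, 108 and 118 CPM in untreated WT and 256, 232 and 162 in treated WT. In KO it held 87.9, 85.2 and 87.7 untreated and 95.4, 128 and 109 treated. Its untreated KO libraries were the closest of any group, the highest being 1.03 times the lowest. The log2 change with butyrate was 0.67 (SE 0.23, edgeR adjusted p = 0.155) in WT, where the groups overlapped, and 0.35 (SE 0.23, adjusted p = 0.444) in KO, where they did not.

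EGR1, a zinc finger factor induced by growth and stress signals, varied most in WT. Replicates 1, 2 and 3 held 14.4, 42.8 and 96.4 CPM in untreated WT and 41.9, 257 and 204 in treated WT, so the groups overlapped and the highest library was 6.72 and 6.13 times the lowest. KO libraries held 163, 79.8 and 104 CPM untreated and 309, 337 and 304 treated, and the treated ones differed by no more than 1.11 times. Log2 fold changes were 1.71 (SE 0.65, edgeR adjusted p = 0.186) in WT and 1.45 (SE 0.64, adjusted p = 0.231) in KO. In same-numbered libraries EGR1 was higher with butyrate in all 6 pairs, by 2.92, 6.01 and 2.11 times in WT and 1.89, 4.22 and 2.92 times in KO. Without replicate 1 of treated WT the WT value was 2.56 and passed (edgeR adjusted p = 0.031).

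EGR2, its relative known from myelin formation and macrophages, had 0 counts in each untreated WT library and 5, 28 and 9 counts in the treated ones. Untreated KO libraries had 2, 1 and 0 counts and treated KO libraries 6, 25 and 22. All untreated libraries were thus under the floor of 3 counts, and all treated ones above it. Against that floor, set per library, the treated WT mean of EGR2 was at least 4.32-fold higher. In KO the summed counts were 53 treated and 3 untreated, and their ratio after scaling was 14.8 with an exact 95% interval of 4.80 to 74.1 for counting error only. No p-value is given for either, because the low untreated counts are part of how EGR2 came to be tested.

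ATF3 went the other way. Untreated WT libraries held 30.3, 45.9 and 21.2 CPM and treated WT libraries 14.5, 13.4 and 14.97, while KO libraries held 14.5, 38.9 and 17.9 untreated and 1.93, 3.67 and 9.15 treated. Treated libraries lay below untreated ones in both genotypes. The log2 fold change was −2.27 (SE 0.53, edgeR adjusted p = 0.0381) in KO and −1.18 (SE 0.51, adjusted p = 0.247) in WT. In KO replicates 1, 2 and 3 the treated level was 13.3%, 9.43% and 51.1% of the same-numbered untreated level. The KO call passed in 1 of 6 fits that left out 1 library, the one without replicate 3 of treated KO, with values from −3.07 to −1.72 and an adjusted p of up to 0.177 by edgeR.

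**Figure D3:**
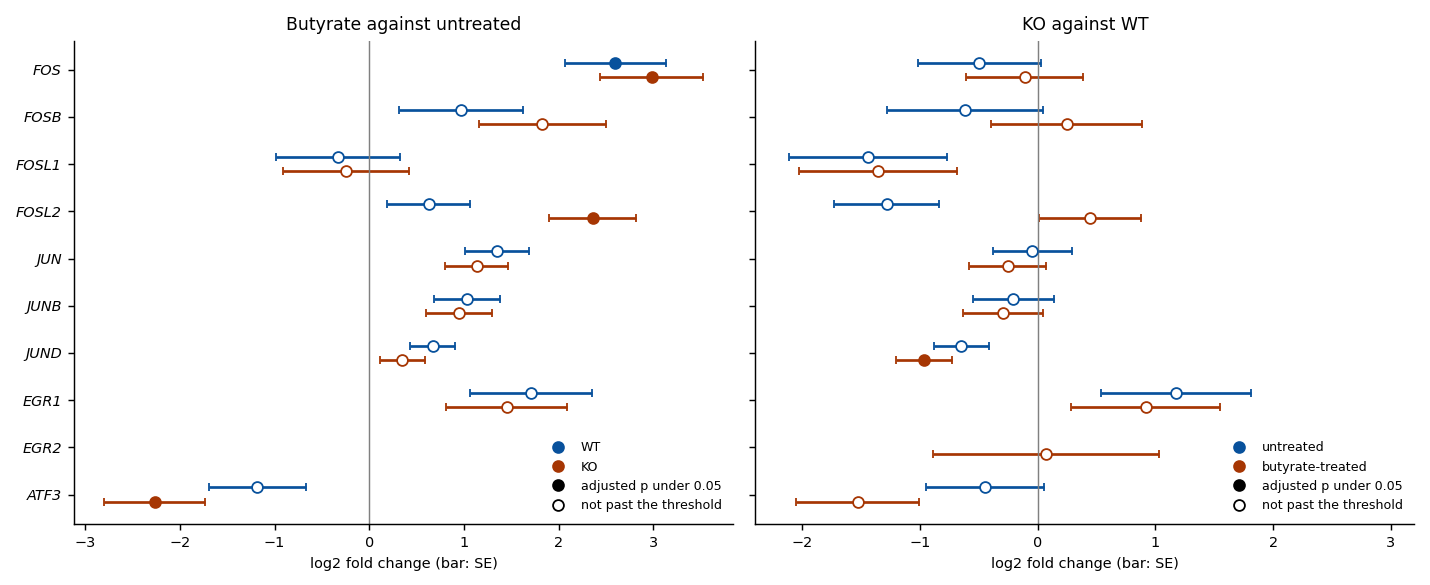
Log2 fold changes by edgeR with their SE, for butyrate against untreated (left, by genotype) and KO against WT (right, by treatment); filled points passed an adjusted p of 0.05. EGR2 is drawn only for KO against WT in treated cells, since its untreated libraries were all under the floor of 3 counts. FOS passed in both genotypes, FOSL2 and ATF3 in KO, and JUND between treated genotypes.

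Read as counts of genes whose libraries did not overlap, butyrate separated FOS, JUN and JUNB upward and ATF3 downward in WT, where 11.3% of all tested genes lay apart upward and 10.4% downward. In KO FOS, FOSB, FOSL2, JUN, JUNB, JUND and EGR1 were apart upward and ATF3 downward, where the shares over all genes were 12.6% and 11.8%. The same-numbered pairs gave a close picture. In WT FOS, FOSB, JUN, JUNB, JUND and EGR1 were higher in all 3 pairs and ATF3 was lower, against 22.3% and 22% of all tested genes. For KO the higher ones also included FOSL2, and ATF3 was lower, against 26% and 27%. EGR2 lay apart upward in both genotypes too, which its passage through the filter fixed in part, and it is left out here.

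**Figure D4:**
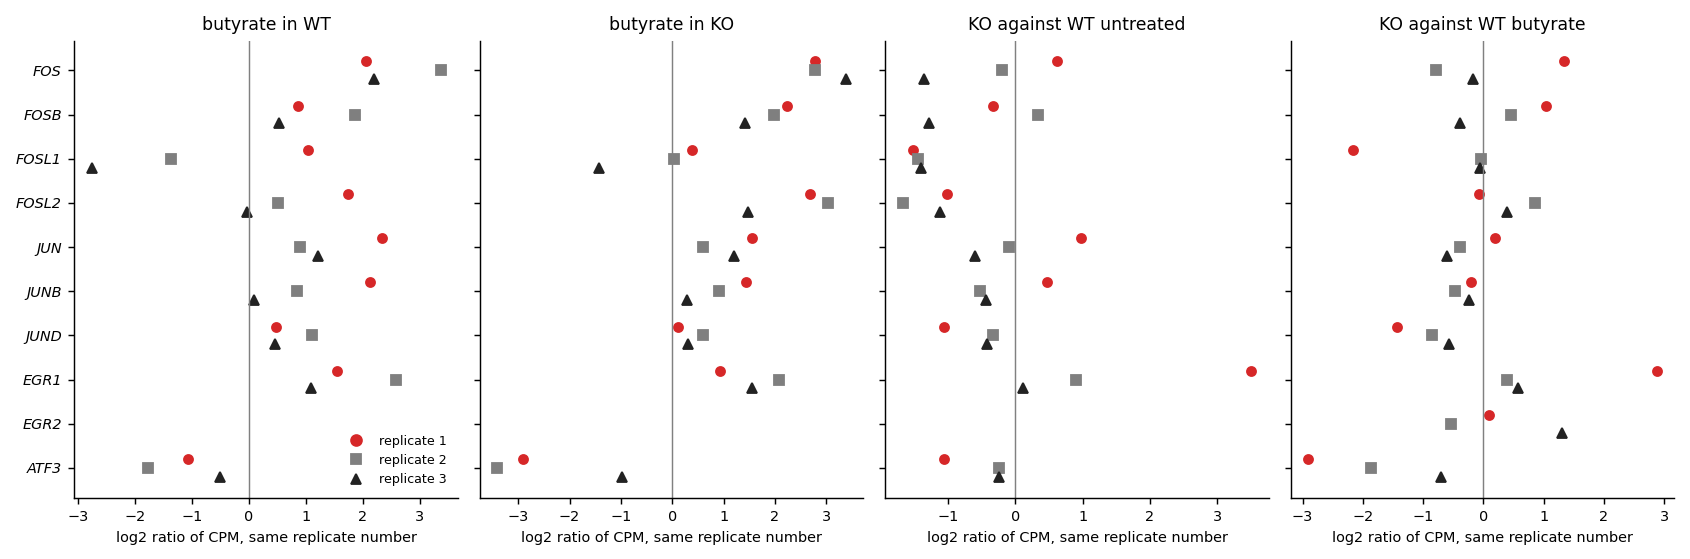
Log2 ratio of CPM between libraries of the same replicate number, for 4 comparisons. Each point is 1 pair, shaped and coloured by its number. Pairs whose reference library, untreated or WT, had 3 counts or fewer (EGR2, 3 panels) are not drawn. The widest spreads are FOSL1 with butyrate in WT and EGR1 between genotypes, where replicate 1 stands apart.

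Leaving out the 4 libraries numbered 1, each with the highest share of RNA28SN5 in its own group, changed the count of calls. With 2 libraries per group, edgeR called 6 of the 10 genes for butyrate in WT, against 11.4% of all genes tested in that fit, and 5 in KO, against 13.1%. In WT these were FOS (log2 2.67), JUN (1.05), JUND (0.79), EGR1 (1.71, adjusted p = 0.0131) and EGR2 (which the filter admitted for its treated libraries), all higher, and FOSL1, which was lower (−1.99, adjusted p = 0.0222). The KO calls were FOS, FOSL2, JUN, EGR1 (1.78, adjusted p = 0.00965) and ATF3 (−2.16). The part of RNA28SN5 itself was not tested.

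The next comparison asked whether the knockout changed these genes. Between treated cells JUND was the gene that passed the threshold in the reported fit, and it was lower in KO. Treated WT held 256, 232 and 162 CPM against 95.4, 128 and 109 in treated KO, with no overlap. The log2 fold change was −0.97 (SE 0.24, edgeR adjusted p = 0.0126), and it passed in all 6 fits without 1 library, between −1.16 and −0.84, with a highest adjusted p of 0.0485. Here 0 of 10 were called higher and 1 lower, while 10.1% of all tested genes were called higher and 8.89% lower (19% in all), and 2 had an unadjusted p under 0.05, against 31.6%. Between untreated cells 0 of 10 were called by edgeR, with 2 at an unadjusted p under 0.05, against 34.6% of all tested genes, and 2 called by DESeq2. Of all tested genes edgeR called 22.6% there, 11.7% higher and 10.9% lower, and DESeq2 28.5%. With the block it called 2 of the 10 in each genotype comparison, against 33% of all tested genes in untreated and 29.2% in treated cells. DESeq2 also called 2 in treated cells, against 25.2%. The member counts thus lay near or below the share over all genes.

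In untreated cells JUND, at 184, 108 and 118 CPM in WT and 87.9, 85.2 and 87.7 in KO, did not overlap either. Its log2 value of −0.65 (SE 0.23, edgeR adjusted p = 0.0657) missed the threshold, and the blocked value, −0.63, passed it (adjusted p = 0.0394). FOSL2 behaved alike in the fits, with −1.29 (SE 0.45, edgeR adjusted p = 0.0573) and a blocked −1.26 (adjusted p = 0.0282), although its lowest WT library, 2.71 CPM, lay below the highest KO library, 3.21. FOSL1 was at 35.0%, 36.6% and 38.0% of the WT level in the 3 same-numbered untreated pairs, with no overlap, but its log2 value of −1.45 (SE 0.67, edgeR adjusted p = 0.147) did not pass. In treated cells the FOSL1 pairs gave 22.3%, 97.2% and 95.9%. The fit there gave −1.36 (SE 0.67, edgeR adjusted p = 0.187). Without the libraries numbered 1, edgeR called FOSL1 (−1.43, adjusted p = 0.0384) and FOSL2 (−1.36, adjusted p = 0.0303) lower in untreated KO, against 26.2% of all genes called. The same fit called JUND in treated cells (−0.76, adjusted p = 0.0272), against 24.7%.

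EGR1 was higher in KO in all 6 same-numbered pairs, with the largest ratio in replicate 1 of both. The untreated ratios were 11.4, 1.86 and 1.08 in replicates 1, 2 and 3, and the treated ratios 7.37, 1.31 and 1.49. Replicate 1 of WT, with 14.4 and 41.9 CPM, was the lowest library of each WT group. Over the groups, EGR1 averaged 51.2 ± 41.7 CPM in WT and 116 ± 43.0 in KO when untreated (SD, n = 3), and 168 ± 112 and 316 ± 17.7 when treated. The log2 values of 1.17 (SE 0.64, edgeR adjusted p = 0.216) and 0.92 (SE 0.63, adjusted p = 0.363) did not pass. All treated KO libraries nevertheless lay above all treated WT libraries, as was the case for 17.9% of all tested genes.

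ATF3 in treated cells was lower in KO, at 13.3%, 27.4% and 61.1% of the same-numbered WT libraries, and the groups did not overlap. Its log2 value was −1.53 (SE 0.52, edgeR adjusted p = 0.0584). The blocked fit gave −1.63 and passed (adjusted p = 0.0231). In untreated cells the value was −0.45 (adjusted p = 0.582) and the groups overlapped. FOS differed little in the fits, at −0.50 (edgeR adjusted p = 0.552) untreated and −0.11 (adjusted p = 0.913) treated, and its libraries overlapped in both. JUN was at −0.05 and −0.26, JUNB at −0.21 and −0.29, FOSB at −0.62 and 0.25, and FOSL2 at 0.44 in treated cells, with edgeR adjusted p from 0.540 to 0.947. EGR2, under the floor in all untreated libraries, was given no untreated fold, and in treated cells it was at 0.07 (edgeR adjusted p = 0.974). In untreated cells 2 genes (FOSL1 and JUND) lay apart downward, against 20.2% of all tested genes, and none upward, against 22.2%. In treated cells EGR1 lay apart upward and JUND and ATF3 downward, the latter against 16% of all tested genes. In all 3 same-numbered pairs, 1 gene (EGR1) was higher in untreated KO, against 32.5% of all tested genes, and 4 were lower (FOSL1, FOSL2, JUND and ATF3), against 30.4%. In treated cells EGR1 was again higher, against 31.5%, and FOSL1, JUNB, JUND and ATF3 were lower, against 28.8%.

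Whether the butyrate response differed between genotypes was tested as the interaction, the KO effect minus the WT effect. By edgeR 0 of the 10 genes passed, 1 had an unadjusted p under 0.05, against 4.16% of all tested genes, and DESeq2 called 0. Of all tested genes 0% passed by edgeR, 0.544% by DESeq2, 0.019% with the replicate block and 0.0547% without the libraries numbered 1, and none of these calls was a member. That 1 gene was FOSL2, with a difference of 1.73 on the log2 scale (95% interval 0.38 to 3.08, unadjusted p = 0.0162, adjusted p = 0.956). Thus FOSL2, called in KO and not in WT, was not shown to respond differently. ATF3 had a difference of −1.08 (−2.64 to 0.48), so the threshold passed in KO alone is not a shown difference either. Intervals were narrowest for JUND (−0.32, from −1.04 to 0.40), JUN (−0.21, from −1.23 to 0.81) and JUNB (−0.08, from −1.13 to 0.96). Those of FOS (0.38, from −1.18 to 1.94), EGR1 (−0.26, from −2.18 to 1.67), FOSB (0.86, from −1.14 to 2.87) and FOSL1 (0.08, from −1.94 to 2.11) still held differences of over 1 log2 unit in either direction. EGR2 was given no interaction value, since its untreated libraries were under the floor.

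Other immediate early genes were counted from a list of 24, of which 19 passed the filter. The shares of all tested genes called, given above for each comparison, are the background for this list and the next ones. With butyrate 2 were called higher and 0 lower in WT: IER5, a stress-responsive gene, by 1.03 (edgeR adjusted p = 0.0316), from 65.9 ± 13.2 to 134 ± 9.14 CPM, and BTG2, an antiproliferative gene, by 2.55 (adjusted p = 0.0399), from 22.6 ± 15.3 to 133 ± 68.2. For KO 3 were called higher and 0 lower: IER3 by 1.69 (edgeR adjusted p = 0.0303), IER5 by 1.01 (adjusted p = 0.0281) and IER5L by 2.30 (adjusted p = 0.0278). The list's median log2 fold change was 0.76 in WT and 0.83 in KO, against 0.02 and 0.00 over all tested genes. Between genotypes 2 of 19 were higher and 2 lower in untreated KO, against 11.7% and 10.9% of all tested genes. BTG1 (1.93, edgeR adjusted p = 0.000415) and the nuclear receptor NR4A1 (1.73, adjusted p = 0.0103) were the higher ones. ZFP36, which encodes an mRNA decay factor, fell by 1.11 on the log2 scale (edgeR adjusted p = 0.0153). The other lower one was EGR3, with 1 count over 3 KO libraries against 29 over 3 WT libraries. The ratio of WT to KO after scaling was 28.9, with an exact interval of 4.80 to 1182 for counting error only. Every untreated KO library was under the floor of 3 counts, so EGR3 does not support the count of lower genes and is given no p-value. In treated cells 1 was higher, BTG1 (1.36, edgeR adjusted p = 0.00469), and 1 lower, ZFP36 (−1.14, adjusted p = 0.0150).

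Upstream of these genes, none of the 9 genes of the serum response factor axis was called with butyrate in either genotype by edgeR (0 of 9, with 3 at an unadjusted p under 0.05 and 1 by DESeq2 in each). In untreated KO 3 of the 9 were lower and 0 higher, where 10.9% of all tested genes were lower and 11.7% higher. ELK1, an ETS factor that MAP kinases phosphorylate, went from 80.1 ± 8.70 to 43.0 ± 1.16 CPM (log2 −0.90, edgeR adjusted p = 0.00502). FHL2, a LIM-domain cofactor, was at −2.83 (edgeR adjusted p = 0.00940), and the cAMP-responsive factor CREM at −0.63 (adjusted p = 0.0486). Treated KO had lower ELK1 (−0.77, edgeR adjusted p = 0.0142) and FHL2 (−3.38, adjusted p = 0.00425), and higher MRTFA, an actin-linked coactivator (0.71, adjusted p = 0.0331). SRF itself averaged 84.6 ± 9.73 CPM in untreated WT and 50.4 ± 5.63 in untreated KO, and was not called.

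Among 16 genes of the MAP kinase cascade, 0 were called with butyrate by edgeR in either genotype, with 1 in WT and 5 in KO at an unadjusted p under 0.05, and 0 and 1 by DESeq2. In untreated KO MAPK14, the p38 alpha kinase, was higher (0.59, edgeR adjusted p = 0.0378) and RPS6KA3, which encodes the kinase RSK2, was lower (−1.21, adjusted p = 0.000852). RPS6KA3 was lower in treated KO as well (−1.06, edgeR adjusted p = 0.00266). Of 11 feedback inhibitors of the cascade, 0 were called with butyrate in WT (3 unadjusted, 2 by DESeq2), and in KO 1 was called higher and 0 lower. That was DUSP5, a nuclear ERK phosphatase, which went from 2.38 ± 0.412 to 11.5 ± 4.64 CPM (log2 2.27, edgeR adjusted p = 0.00995). In untreated KO 3 of 11 feedback genes were higher and 1 lower, where 11.7% of all tested genes were higher and 10.9% lower. SPRY1, a receptor tyrosine kinase signalling inhibitor, rose from 1.30 ± 0.748 to 12.3 ± 2.65 CPM (log2 3.23, edgeR adjusted p = 0.000265). SPRY2 (1.22, adjusted p = 0.0278) and DUSP7 (1.00, adjusted p = 0.0182) rose too by edgeR, and DUSP5 fell by 1.12 (adjusted p = 0.0467). Treated KO had higher SPRY1 (2.73, edgeR adjusted p = 0.000960), DUSP10 (1.27, adjusted p = 0.00643) and DUSP7 (1.08, adjusted p = 0.0147), and none lower.

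Dimer partners came from a list of 12 other basic leucine zipper genes, of which 11 passed the filter. None was called with butyrate by edgeR, with 3 at an unadjusted p under 0.05 in each genotype, and 2 in WT and 1 in KO by DESeq2. In untreated KO 3 of 11 were lower and 0 higher, where 10.9% of all tested genes were lower and 11.7% higher. These were NFE2, the erythroid and megakaryocytic factor, from 346 ± 93.8 to 157 ± 18.8 CPM (log2 −1.14, edgeR adjusted p = 0.0125), and its small MAF partners MAFK (−0.91, adjusted p = 0.0132) and MAFG (−0.70, adjusted p = 0.0232). The small MAF genes were also lower in treated KO, MAFK by −1.20 (edgeR adjusted p = 0.00316) and MAFG by −0.69 (adjusted p = 0.0288). NFE2 is itself an erythroid and megakaryocytic gene. The erythroid marker sums given above are lower in the KO libraries too, although single erythroid markers went both ways. The part of cell identity was not tested. Of the corepressors that bind EGR proteins, NAB1 was higher in untreated KO (1.13, edgeR adjusted p = 0.000543) and in treated KO (0.78, adjusted p = 0.00730). NAB2 was lower in untreated KO (−0.92, adjusted p = 0.0209), and with butyrate 0 of the 2 were called by edgeR, with 1 in each genotype at an unadjusted p under 0.05 and by DESeq2.

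Of 18 genes known as AP-1 targets in other cells, 12 passed the filter. With butyrate 0 were called in WT by edgeR (3 unadjusted, 0 by DESeq2), and in KO 2 were called higher and 0 lower. CCND1, which encodes cyclin D1, rose in KO from 0.545 ± 0.382 to 9.95 ± 8.93 CPM (log2 4.14, edgeR adjusted p = 0.0224), and MMP9, a matrix metalloproteinase, from 0.141 ± 0.0736 to 2.56 ± 1.78 (log2 4.18, adjusted p = 0.0278). Treated KO libraries of CCND1 ranged from 1.33 to 19.2 CPM. In untreated KO 5 of 12 were lower and 0 higher, where 10.9% of all tested genes were lower and 11.7% higher. CD44, an adhesion receptor, had 24.7 ± 15.1 CPM in WT and 7 counts over the 3 KO libraries. CCND1 was at 38.1 ± 8.39 CPM in WT (edgeR adjusted p = 0.000348). The chemokine CXCL8 had 0 counts in untreated KO, at least 22.4-fold lower against the floor of 3 counts per library. TIMP1, a metalloproteinase inhibitor, fell by 1.66 (adjusted p = 0.0113). The fifth was IL6, named after its values were seen, with 114 counts over the WT and 3 over the KO libraries. Even in treated KO, CXCL8 and IL6 averaged only 0.117 and 0.0876 CPM. They passed the filter through WT libraries, where they are high, so they support none of these counts and are given no p-value. CD44, too low in untreated KO to reach the filter's minimum count of 10 there, is treated alike. In treated KO 4 of 12 were lower and 0 higher by edgeR, where 8.89% of all tested genes were lower and 10.1% higher. By edgeR these were TIMP1 (−1.77, adjusted p = 0.00944) and CCND1 (−2.47, adjusted p = 0.0275). CD44 (−6.27) and CXCL8 (−3.59) were the others, and they again support no count. No gene of any of these lists passed in the interaction by edgeR.

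Genes with the most similar profile were sought for the 4 members that passed in any comparison. Likeness was the root mean square difference of log2 CPM over the 12 libraries, after each gene was centred on its own mean. FOS was closest to LGALS12 (0.514), SLC30A3 (0.519) and CGB7 (0.534). LGALS12, a galectin gene, averaged 4.25, 17.2, 2.22 and 25.1 CPM in WT without and with butyrate and then KO without and with it. FOSL2 was closest to SPI1 (0.375), DLL4 (0.442) and UBTD1 (0.456). SPI1, which encodes the myeloid factor PU.1, averaged 35.1, 57.8, 12.9 and 47.5 CPM in that order of groups, low in untreated KO as FOSL2 was.

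JUND, whose log2 CPM had the smallest range of the 10 genes (1.59), was closest to FAM89B (0.180), AGAP4 (0.212) and UBE2S (0.231). The distance is not scaled to how far a gene varies, so values are not ranked between the 4 members. ATF3, with a range of 4.52, was closest to MTHFD1L (0.378), PSAT1 (0.389) and CCDC71L (0.450). MTHFD1L and PSAT1 encode enzymes of mitochondrial folate and of serine synthesis. PSAT1 averaged 248, 112, 148 and 39.9 CPM and MTHFD1L 148, 60.1, 121 and 30.2 in the same order of groups, and in each the treated KO group was lowest, as for ATF3. Among the 10 genes themselves, the nearest pair was JUN and JUNB (0.459), whereas FOS and ATF3 differed by 2.48.

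**Figure D5:**
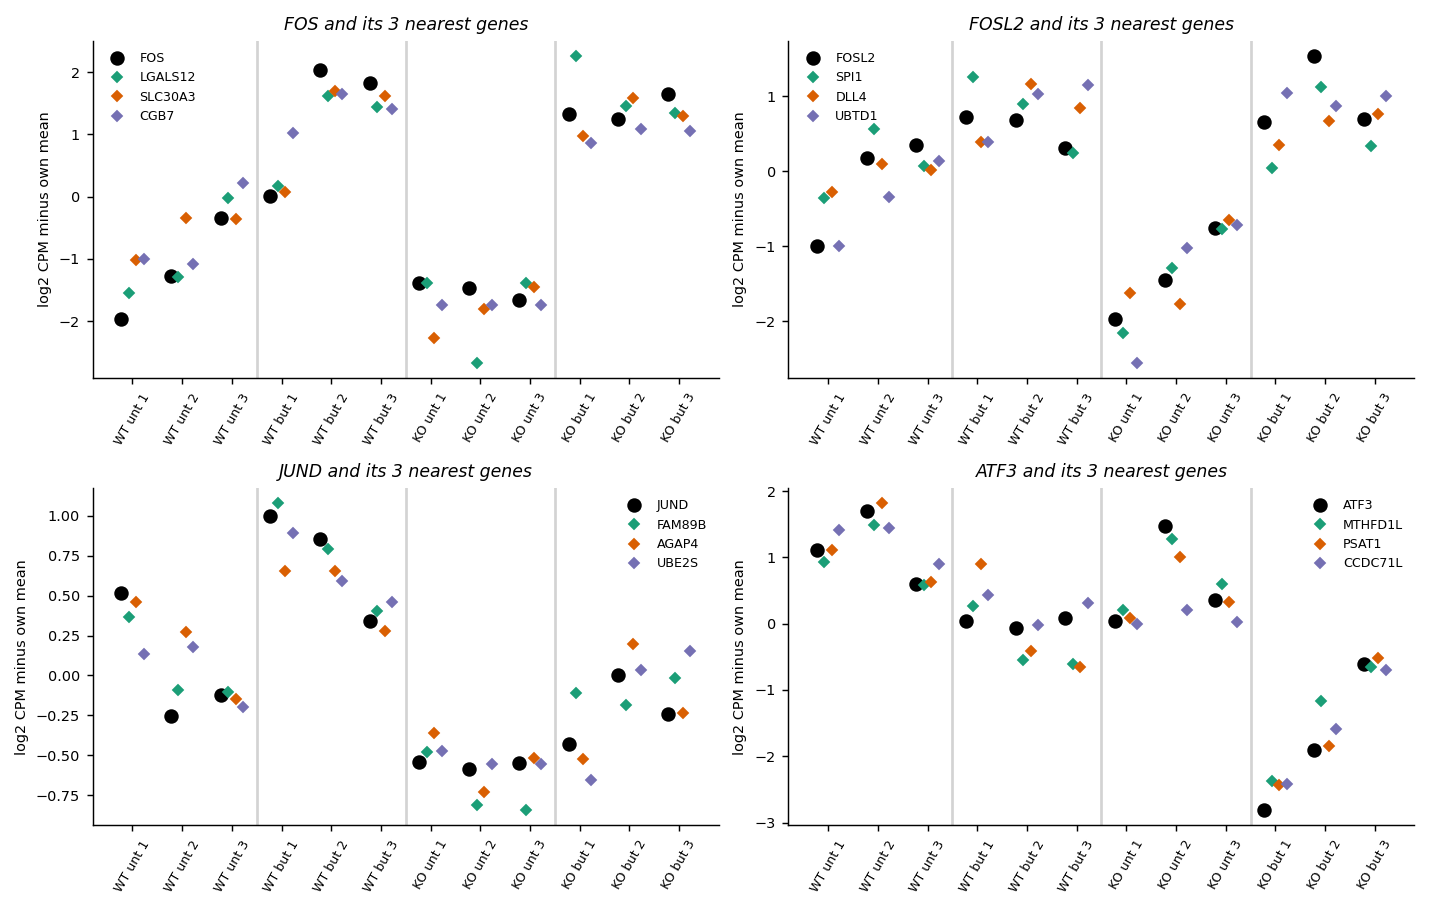
Log2 CPM minus the gene's own mean in each of the 12 libraries, for FOS, FOSL2, JUND and ATF3 (black) and the 3 genes with the smallest root mean square difference from each (coloured); grey lines part the 4 groups. Panels have their own axes: JUND, with the smallest range (1.59), lies at 0.180 to 0.231 from its neighbours, and ATF3 and its neighbours are lowest in treated KO.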

How the data were processed

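RNA was sequenced from 12 K562 libraries in 4 groups of 3, grouped by the sample titles. The authors deposited a single table of raw counts, 1 line per gene symbol. FastQC 0.12.1, STAR 2.7.11b and the build hg38 are named, per the submitters' processing notes; the counting tool, annotation and use of strand are not given in the sources used here. All 12 columns were matched by library name, and 0 were unused.

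The deposited counts went unchanged into edgeR 4.0.16 (R 4.3.3): filterByExpr with a minimum count of 10 (15805 genes kept), TMM scaling, 1 mean per group over all 12 libraries (biological coefficient of variation 0.384), the quasi-likelihood F-test, and Benjamini-Hochberg adjustment over all tested genes with a threshold of 0.05. Reads carry no stated molecular identifiers, so the floor of 3 counts per library, used for bounds against groups at 0, and exact 95% intervals of count ratios cover counting error only. An exact permutation test of 3 against 3 libraries cannot go below 0.1 and is not quoted. The fits were tested on simulated data.

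Deviations from group means correlated between same-numbered libraries of the groups compared (0.147 to 0.595 over all pairs), above 0.1 in every pair. Between libraries of different numbers they ran from −0.512 to 0.343. The 2 ranges overlapped between treated genotypes, where same-numbered libraries began at 0.315. Same-numbered libraries were set side by side as pairs, but the reported fit carries no block. A replicate block, DESeq2 1.42.0, other scalings and filters, a fit of the 2 groups alone, each library left out in turn and the 4 libraries numbered 1 left out together were alternatives.

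The members, gene lists and tests were chosen with earlier results of these data known. Named genes are the members, SLC48A1, the listed genes past the threshold in a contrast (the 4 with the smallest adjusted p where there were more) and the 3 nearest profiles to each member that passed. Gene lengths and overlaps came from GENCODE v29 on GRCh38 and promoters from RefSeq on GRCh38.p14.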

Additional observations from a re-analysis of the deposited data

How the results depend on the processing

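With 3 libraries per group, a biological coefficient of variation of 0.384 and EGR2 at 28 counts or fewer, differences as large as the 3.55-fold one of FOSB in KO missed the threshold. The share of all tested genes called in each fit is given in brackets. For butyrate in WT, members called numbered 1 in the reported fit (2.35%), 2 with no filter (2.04%) and 2 with a filter of at least 10 counts (2.58%). They numbered 3 by DESeq2 (8.42%) and 3 with the replicate block (8.61%). There were 0 when the 2 groups were fitted alone (0.435%) and 6 without the 4 libraries numbered 1 (11.4%). EGR2 is in both counts of 3, in the 6 and in the 5 given below for single libraries left out. It passed the filter only through its treated groups, so it supports none of these counts. In KO, 3 (3.4%) became 5 with the block (11.7%) and 5 without the libraries numbered 1 (13.1%). It became 4 by DESeq2 (9.73%) and with the 2 groups alone (3.28%), and 2 with library size alone (2.99%) and with at least 10 counts (2.6%). Between untreated genotypes, 0 (22.6%) became 1 with library size alone (21.6%). It became 2 by DESeq2 (28.5%), with the block (33%), with the 2 groups alone (28.7%) and without the libraries numbered 1 (26.2%). Between treated genotypes, 1 (19%) became 2 with no filter (12.9%), by DESeq2 (25.2%) and with the block (29.2%). Leaving out single libraries gave 0 to 5, 0 to 3, 0 to 1 and 1 to 2 members in these comparisons. The shares of all genes called there ran from 0.262% to 7.63%, 0.292% to 5.09%, 15.1% to 17.4% and 12.3% to 21.4%. The 5 came without replicate 1 of treated WT, where 7.63% of all genes were called. The cause of these differences was not tested.

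All genes called numbered 372 for butyrate in WT, 537 in KO, 3574 and 3009 for genotype untreated and treated, and 0 for the interaction. DESeq2 called 1331 and 1538 for butyrate and 86 for the interaction. The replicate block gave 1361, 1852, 4612 between treated genotypes and 3 for the interaction, and without the libraries numbered 1 there were 1884, 2164 and 9 for the interaction. The block changed the calls of members given beside them in the report and that of EGR2 with butyrate in WT, which is not used there, and no other. The ATF3 call in KO was also lost with library size alone (edgeR adjusted p = 0.0566), with a filter of at least 10 counts (0.0504) and with the 2 groups alone (0.0797). With the 2 groups alone, FOS in WT had an adjusted p of 0.118.

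Over all alternatives, 640 values of single members kept direction and side of the threshold, 38 newly passed, 20 no longer passed and 39 changed sign, none of which was past the threshold in either fit. The reversed values were the block for FOS between treated genotypes (0.028), library size alone for the JUNB interaction (0.077), and the fit without libraries numbered 1 for the JUNB (0.10) and EGR1 (0.071) interactions. Leaving out single libraries gave reversals within these ranges: FOSL1 with butyrate −1.92 to 0.14 in WT and −0.51 to 0.072 in KO; untreated genotype FOS −0.81 to 0.055, FOSB −0.96 to 0.23 and JUN −0.39 to 0.18; treated genotype FOS −0.53 to 0.23, FOSB −0.13 to 0.53, FOSL1 −1.85 to 0.21, JUNB −0.69 to 0.023 and EGR2 −0.29 to 1.14. For the interaction the ranges were −0.19 to 0.72 in FOS, −0.0073 to 1.21 in FOSB, −0.39 to 1.68 in FOSL1, −0.46 to 0.13 in JUN, −0.49 to 0.26 in JUNB and −1.10 to 0.19 in EGR1.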
